A study of Mus musculus with 6 samples.

Results

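Nuclei that the depositors annotated as the neuron subtype Nts were taken as 1 population, by 2 labels in the deposited per-nucleus metadata, the major type neuron and the subtype Nts. There were 161 such nuclei among 6035 neurons and 18514 nuclei in all, 105 from CON samples and 56 from TESS samples. The subtype ranked 16th of 38 neuron subtypes by number of nuclei. All samples were spinal cord of wild-type C57BL/6 mice with a severe bruise of the thoracic cord that had left both hindlimbs paralysed, and all mice had spent 30 min on a treadmill. TESS (3 samples) denotes mice that also received epidural electrical stimulation, and CON (3 samples, with the condition given as paralyzed) mice that did not. The series text mentions 5-HT1a and D1 receptor agonists given with stimulation, and leaves unclear whether CON mice had them. The source label is lumbar cord, whereas the dissection text speaks of the thoracic injury. The labels do not say whether each sample is 1 animal, or of what age or sex, so p-values measure the spread between samples.

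Nts encodes the precursor of neurotensin, a peptide that is stored in dense-core granules, cut out of its precursor by prohormone convertases and released together with a fast transmitter. Neurotensin acts on the G protein-coupled receptors Ntsr1 and Ntsr2 and also binds sortilin, a sorting receptor encoded by Sort1. In the spinal cord, neurotensin neurons are best known as glutamatergic interneurons of the dorsal horn, where touch, itch and pain input from the skin is processed, and Slc17a6 encodes the transporter that loads glutamate into their vesicles.

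Nts lies on the minus strand at chr10:102481756-102490486 (GRCm38), and no other annotated gene overlaps it. The promoters of Nts, which defines the subtype, and of Sst, the somatostatin gene found in most of its nuclei, are shown because both genes are described below and both are textbook targets of activity-driven factors. Each sequence is the RefSeq window of GRCm38.p6 from 250 bases before to 50 bases after the gene start, printed 5′ to 3′ on the gene's own strand, and capitals mark matches to the motifs TGANTCA (AP-1) and TGACNTCA (CRE-like), searched on both strands.
Nts promoter, chr10:102490369-102490668, minus strand: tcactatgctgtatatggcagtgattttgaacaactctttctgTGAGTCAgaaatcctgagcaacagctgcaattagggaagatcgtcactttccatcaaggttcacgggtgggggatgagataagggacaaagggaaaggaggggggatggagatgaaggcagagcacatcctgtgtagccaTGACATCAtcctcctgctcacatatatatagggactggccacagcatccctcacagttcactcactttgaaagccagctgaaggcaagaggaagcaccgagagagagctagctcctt
Sst promoter, chr16:23890795-23891094, minus strand: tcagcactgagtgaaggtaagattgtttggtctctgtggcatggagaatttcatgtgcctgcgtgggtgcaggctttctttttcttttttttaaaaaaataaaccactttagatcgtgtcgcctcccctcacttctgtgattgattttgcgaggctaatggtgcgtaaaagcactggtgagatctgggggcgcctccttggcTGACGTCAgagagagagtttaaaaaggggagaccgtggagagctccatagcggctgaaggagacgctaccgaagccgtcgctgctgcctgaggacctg
The Nts window held 1 AP-1 match, which begins 207 bases before the gene start, and 1 CRE-like match 67 bases before it. The Sst window held 1 CRE-like match 48 bases before the start, which is also the full palindrome TGACGTCA. Among 32851 promoter windows of 300 bases, 7.81% held the AP-1 letters, 8.83% the CRE-like letters and 1.79% the palindrome. The RefSeq starts lie 68 bases (Nts) and 114 bases (Sst) inside the genes as GENCODE vM21 bounds them, so the CRE-like match of each window falls within the GENCODE gene. These are matches of letters, and binding was not measured.

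The label was checked against its 2 markers, Nts and Slc17a6. At least 1 Nts UMI (unique molecular identifier, 1 per captured RNA molecule) was present in 145 of 161 nuclei (90.1%), against 4.46% of other neurons and 0.521% of oligodendrocytes, a type that should lack the gene. Median depth was 1074 UMIs in Nts nuclei, 1712 in other neurons and 433 in oligodendrocytes. The 16 nuclei without an Nts UMI were shallower, with a median of 533 UMIs against 1119 in the rest. Of these, 5 came from CON 3, at 752 to 889 UMIs against a CON 3 median of 964, and held 4 to 12 Sst UMIs each. Slc17a6, the other marker, gave 44 UMIs, with 14, 16 and 5 in CON 1, 2 and 3 and 1, 5 and 3 in TESS 1, 2 and 3. It was found in 21.1% of Nts nuclei, close to the 22.3% of all other neurons, so at this depth it separated the subtype poorly. The inhibitory transmitter genes were nearly absent: Gad1, Gad2 and Slc6a5 had 2 UMIs each and Slc32a1 had 1. Slc32a1, the inhibitory vesicle transporter, was found in 21.9% of other neurons. Chat and Slc5a7, which mark cholinergic neurons, had 0 UMIs, as did the 4 genes listed for neurons that contact the cerebrospinal fluid, and 12 of 14 ventral interneuron genes were at 0.

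A second group of genes set the subtype beside its neighbours. All values in this account of identity are descriptions without a test, since the depositors formed the subtype from these same counts. Nts reached 6554 CPM (UMI counts scaled to a common total of the summed nuclei, as counts per 1000000), 65.1 times the mean of 101 CPM over the other 37 subtypes. The next highest subtype was Rora/Adarb2, with 2048 CPM. Calca, the gene of the sensory peptide CGRP, stood at 631 CPM against a mean of 39.7 CPM, a ratio of 15.9. C1ql3, which encodes a secreted synapse-organising protein, followed at 11.7 times, and the synaptic vesicle gene Synpr at 6.04 times. Penk, the enkephalin precursor, was also highest here, at 5.34 times, as was the transcription factor gene Ebf2, at 5.27 times. Penk was nearly as high in the subtype Tac1, at 1012 CPM against 1052 CPM here. Calca, C1ql3, Synpr, Penk and Ebf2 were all higher here than in any other subtype.

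The rest of the 14 genes with the largest ratio were Col25a1, Fam65b, AI593442, Zfpm2, Nell1, Nedd4l, Unc5d and Cacna2d1. Cacna2d1 encodes the calcium channel subunit to which gabapentin binds. It reached 3648 CPM, 4.24 times the mean elsewhere. Below the 100 UMIs required for that ranking, Rspo2, a secreted Wnt signalling enhancer, was at 14.96 times on 47 UMIs, and Scara5, a ferritin receptor gene, at 69.1 times on 21 UMIs. Both were picked out after their values were seen.

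**Figure D1:**
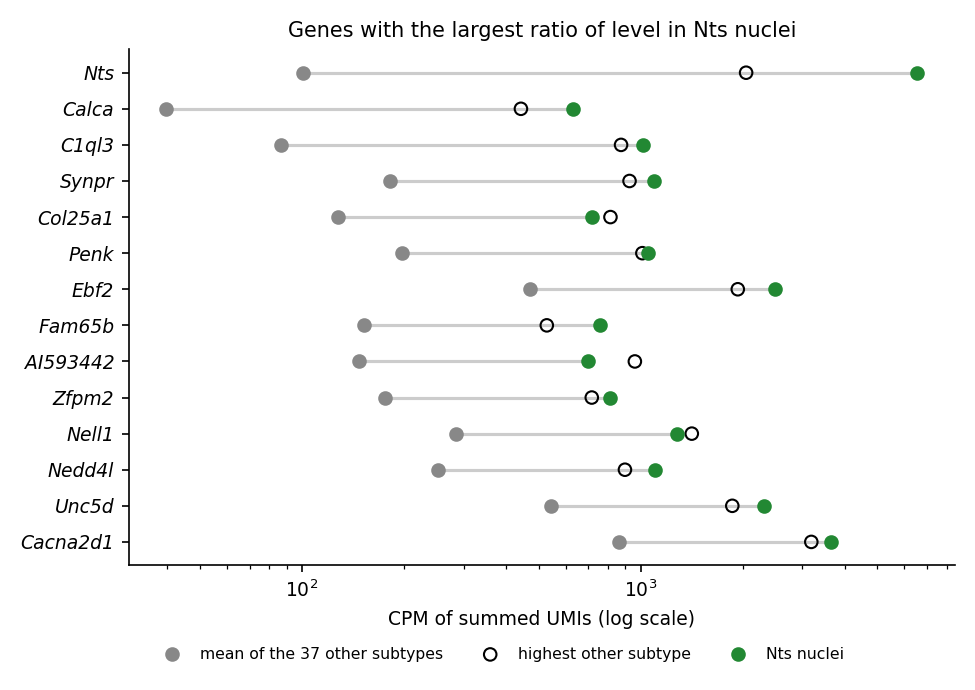
Levels of the 14 genes with the largest ratio in Nts nuclei, as CPM on a log axis. Green points are the Nts nuclei, grey points the mean of the other 37 subtypes and open circles the highest other subtype. Nts stands at 6554 CPM, far from both, whereas for most of the others the highest other subtype lies close to the Nts nuclei.

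Dorsal horn transcription factors accompanied these genes. Of 36 listed factors in the table, 28 had at least 1 UMI in Nts nuclei. Ebf1 was found in 99.4% of nuclei, Tshz2 in 87.0% and Ebf2 in 85.7%. Tlx3, which selects the glutamatergic fate in the dorsal horn, was found in 19.3% of nuclei against 2.81% of other neurons, and its 188 CPM was the highest of any subtype. Of 34 listed markers of dorsal subtypes in the table, 12 were at 0 UMIs. Calb1 (calbindin), 1 of those found, was higher here than in any other subtype, in 35.4% of nuclei against 6.16% of other neurons.

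Receptor genes were uneven. Glra3, a glycine receptor subunit gene, reached its highest level of all subtypes here and was found in 46.6% of nuclei. Gria2, an AMPA receptor subunit gene, was also highest here. The serotonin receptor gene Htr2c was low: 8 UMIs in all, in 4.35% of nuclei against 41.1% of other neurons, 34th of 38 subtypes. Of 25 monoamine receptor genes in the table, 18 were at 0 UMIs, including Htr1a and Drd1, the receptors of the agonists. A count of 0 allows up to 22.8 CPM in the summed CON nuclei and up to 61.0 CPM in the summed TESS nuclei (3 counts of the total). Ntsr1 and Ntsr2 were at 0 too, and Sort1 had 14 UMIs. The μ-opioid receptor gene Oprm1 had 35 UMIs, in 14.9% of nuclei against 11.7% of other excitatory neurons.

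The subtypes whose profile was most like that of the Nts nuclei were Trh, Tac2/Nmu and Npyr-1. Likeness was the correlation of log2(CPM + 10), centred on the mean of each gene, over 19954 genes in 24 subtypes with at least 10 nuclei in every sample. It was 0.296 for Trh, 0.275 for Tac2/Nmu and 0.172 for Npyr-1. The 3 differed from the Nts nuclei in their peptides. Trh nuclei had Sst at 7334 CPM and Cck at 5851 CPM, against 3759 and 338 CPM in Nts nuclei. Tac2/Nmu nuclei had Tac2 at 3977 CPM and Nmu at 2676 CPM, against 1096 and 293 CPM. Penk was under 40 CPM in each of the 3, against 1052 CPM.

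Inside the population, 2 peptide genes hardly met in the same nucleus. Tac2, the neurokinin B gene, was found in 40 nuclei, and Sst in 98. Both were present in 9 nuclei, Tac2 without Sst in 31, Sst without Tac2 in 89 and neither in 32. Sst was thus found in 22.5% of nuclei with Tac2 and in 73.6% of nuclei without it. In oligodendrocytes, Sst was found in 2.69% and Tac2 in 0.860% of nuclei.

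The pattern was not carried by 1 sample. In CON 1, 2 of 10 nuclei with Tac2 had Sst, against 21 of 30 without Tac2. In CON 2 it was 4 of 10 against 14 of 17, and in CON 3, 1 of 7 against 23 of 31. In TESS 1 it was 0 of 3 against 7 of 9, in TESS 2, 1 of 8 against 15 of 21, and in TESS 3, 1 of 2 against 9 of 13. The share was lower among nuclei with Tac2 in all 6 samples, although TESS 3 had only 2 of them. Median depth was 1162 UMIs in nuclei with Tac2 alone and 1079 in nuclei with Sst alone. It was 1292 in nuclei with both genes and 862 in nuclei with neither, and the part of depth in the pattern was not tested. Nts itself was present in nuclei with Tac2 alone and in those with Sst alone, at 7935 CPM and 5529 CPM.

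**Figure D2:**
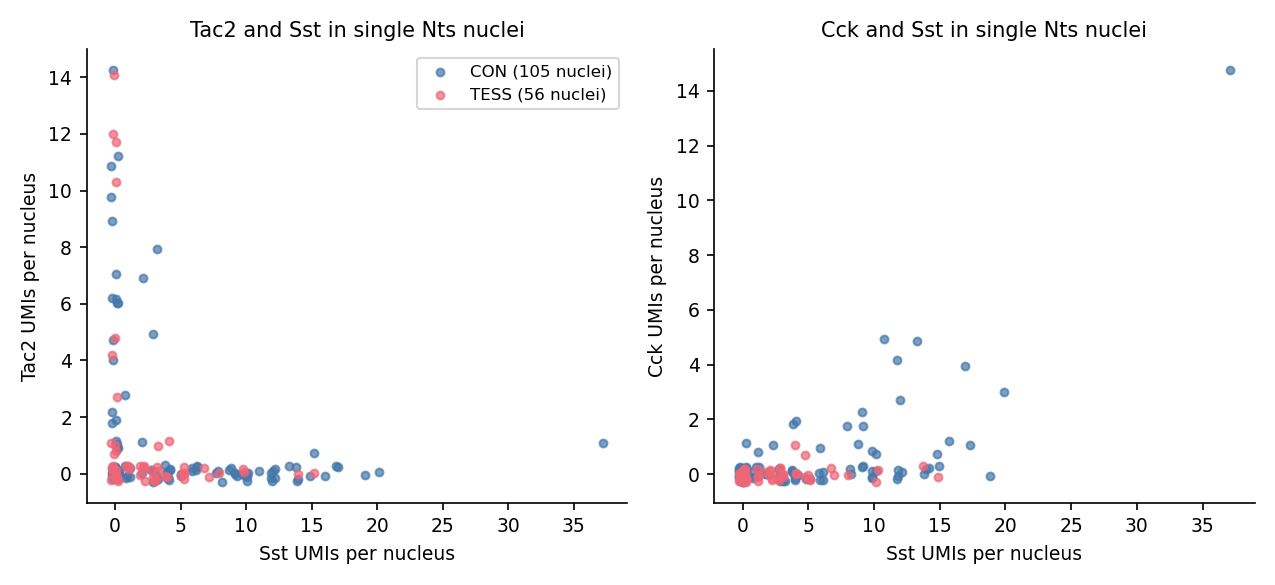
Each point is 1 Nts nucleus, with Sst UMIs on the horizontal axis and Tac2 (left) or Cck (right) UMIs on the vertical axis, jittered by less than 0.5 UMI. The points of Tac2 and Sst lie along the axes, with 9 of 161 nuclei off both, whereas 23 of 24 nuclei with Cck also have Sst.

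Calca was uneven between nuclei with and without Tac2, Penk and Nmu less so, and nearly all nuclei with Cck had Sst. Calca was found in 22 of 40 nuclei with Tac2 (55%) and in 28 of 121 without it (23.1%). CON 2 held 9 of those 22. In TESS 3 the order was reversed, at 0 of 2 nuclei with Tac2 against 5 of 13 without it, whereas every other sample had the higher share with Tac2. Cck, the cholecystokinin gene, was found in 24 nuclei, of which 23 also had Sst. Nmu (neuromedin U) was found in 35 nuclei, 29 of them with Penk, and Penk was in 44.4% of nuclei without Nmu. Nmu was in 22.5% of nuclei with Tac2 and 21.5% without it, and Penk in 45% and 55.4%. Sst was in 74.3% of nuclei with Nmu and 57.1% without it.

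The 2 subsets differed in further genes, listed here as descriptions because the subsets were drawn after the counts were seen. The ranking is by log2 of the ratio of CPM (with 100 CPM added to each) in nuclei with Tac2 alone to nuclei with Sst alone, over 370 genes with at least 50 UMIs. Toward the Tac2 nuclei lay Nrg1, the neuregulin ligand of ErbB receptors, at 2.62, found in 77.4% of them against 23.6% of the Sst nuclei. Sgcd (δ-sarcoglycan) at 2.57, Fam19a1 at 2.51 and Kctd16, an auxiliary subunit gene of GABA-B receptors, at 2.16 came next. Toward the Sst nuclei lay Ghr, the growth hormone receptor gene, at −2.13, found in 38.2% against 6.45%. Dach1, a transcription factor gene, was at −1.91, and Ntrk3, the receptor gene for neurotrophin-3, at −1.83. Both subsets were present in both groups: 20 CON and 11 TESS nuclei had Tac2 alone, and 58 CON and 31 TESS nuclei had Sst alone.

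The first comparison of TESS with CON concerned the number of these nuclei. CON 1, 2 and 3 held 40, 27 and 38, which is 3.35%, 2.47% and 3.07% of their neurons (95% Wilson intervals 2.47 to 4.53%, 1.70 to 3.57% and 2.25 to 4.19%). TESS 1, 2 and 3 held 12, 29 and 15, which is 1.63%, 2.71% and 2.13% (0.936 to 2.83%, 1.89 to 3.86% and 1.30 to 3.49%). The groups overlapped, since TESS 2 lay above CON 2. The mean share was 2.96 ± 0.451% in CON and 2.16 ± 0.537% in TESS (SD, n = 3), a difference of −0.806 percentage points that did not pass a two-sided exact permutation test (p = 0.2). The smallest p this design allows is 0.1. Inside batch 3 the difference was −1.28 points. Intervals cover counting error only.

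Depth and batch moved with the groups. The summed nuclei gave 49387, 42737 and 39317 UMIs in CON 1, 2 and 3 and 16946, 22259 and 10011 in TESS 1, 2 and 3, with no overlap. The median nucleus held 1254.5, 1387 and 964 UMIs in CON and 1356.5, 777 and 668 in TESS (exact permutation test, p = 0.3). The deposited batch number is 3 for CON 1, CON 2 and TESS 1, while CON 3, TESS 2 and TESS 3 are alone in batches 4, 2 and 1. Markers of other cell types were sparse. The 11 astrocyte markers summed to 162, 187 and 356 CPM in CON and to 590, 539 and 599 CPM in TESS, without overlap, on 30 and 28 UMIs in all, with Slc1a3 and Aldh1l1 at 0. The 13 oligodendrocyte markers spanned 1334 to 1559 CPM in CON and 1303 to 1998 CPM in TESS, none of them at 0 over all samples. The part of depth, batch and these markers in the results below was not tested, except where a value is given. Of the 161 nuclei, 3 had a barcode that occurs in a second library, and none of the 3 partners was an Nts nucleus.

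**Figure D3:**
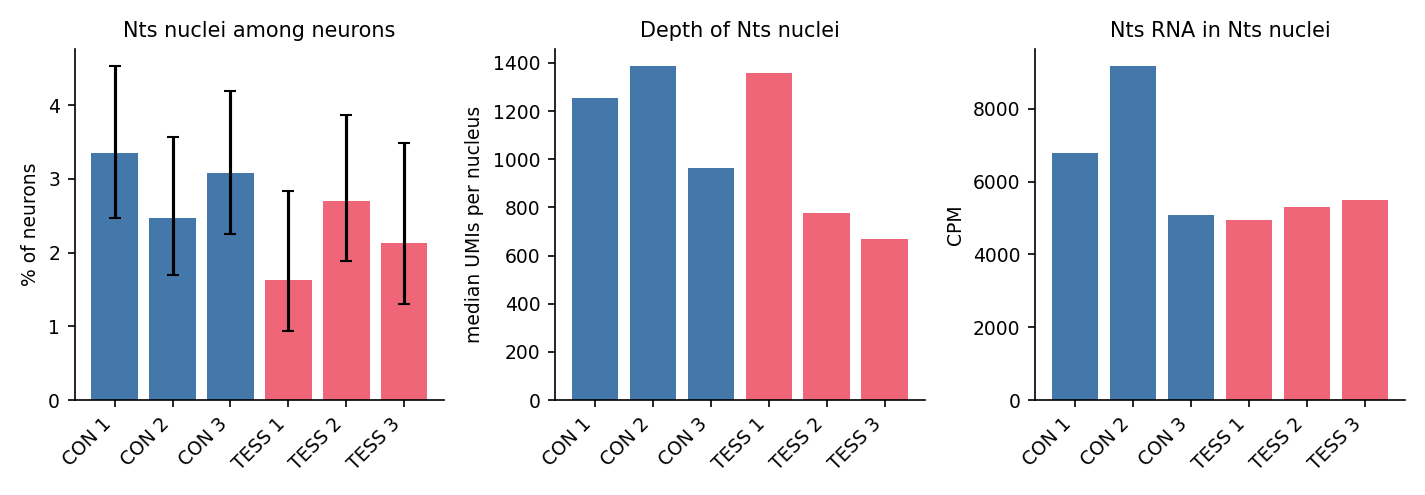
Bars give, for each sample, the Nts nuclei as a percentage of neurons (left, with 95% Wilson intervals), the median UMIs per Nts nucleus (middle) and the Nts level in Nts nuclei in CPM (right), CON in blue and TESS in red. In all 3 panels at least 1 TESS sample lies above the lowest CON sample.

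Gene by gene, the Nts nuclei of the 2 groups differed little that the test could resolve. Of 454 genes with enough counts to test, 1 (0.22%) was called at an adjusted p under 0.05, 0 higher and 1 lower in TESS (edgeR quasi-likelihood test, Benjamini-Hochberg adjustment). At an unadjusted p under 0.05 there were 30 (6.61%), of which 12 were higher and 18 lower, and the median log2 fold change over all 454 was −0.03. CPM did not overlap between groups in 59 genes (13.0%), of which 39 were higher in TESS (8.59% of those tested) and 20 lower (4.41%). With 3 samples a side, groups without any difference separate with a probability of 0.1. The filter on low counts let in 5 genes through the TESS samples alone and 4 through the CON samples alone, which fixes their lack of overlap. These CPM lack the scaling of the fit, in which 215 genes were higher and 239 lower, so the split gives no direction.

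The gene called was Malat1, a long nuclear RNA that is abundant in most nuclei. It made up 4.14%, 7.74% and 5.60% of the UMIs of Nts nuclei in CON 1, 2 and 3 and 3.05%, 3.55% and 3.47% in TESS 1, 2 and 3. CON 2 stood highest, and the groups did not overlap in this summed share. The median share per nucleus was 3.18%, 7.30% and 5.00% in CON and 3.00%, 3.52% and 2.87% in TESS. By that measure CON 1 lay below TESS 2, so the groups overlapped. The log2 fold change of the summed counts was −0.88 ± 0.21 (SE), with an edgeR adjusted p of 0.0465. Malat1 was still called without CON 1 but not without any 1 of the other samples. Without CON 2 its change was −0.59 (edgeR adjusted p = 0.405), and inside batch 3, where TESS 1 is the lone TESS sample, it was −1.09. CON 2 was also highest in Malat1 in other neurons, at 6.23% against 2.94 to 4.48% in the other samples, and in oligodendrocytes, at 10.97% against 5.19 to 7.74%. In both classes the groups overlapped, with CON 1 (3.05% and 5.35%) below TESS 2 (3.66% and 6.79%). In other excitatory neurons the Malat1 change was −0.58 ± 0.17 (edgeR adjusted p = 0.0765). Malat1 overlaps the annotated genes Gm37376 and Gm27694, so its reads are uncertain between them.

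**Figure D4:**
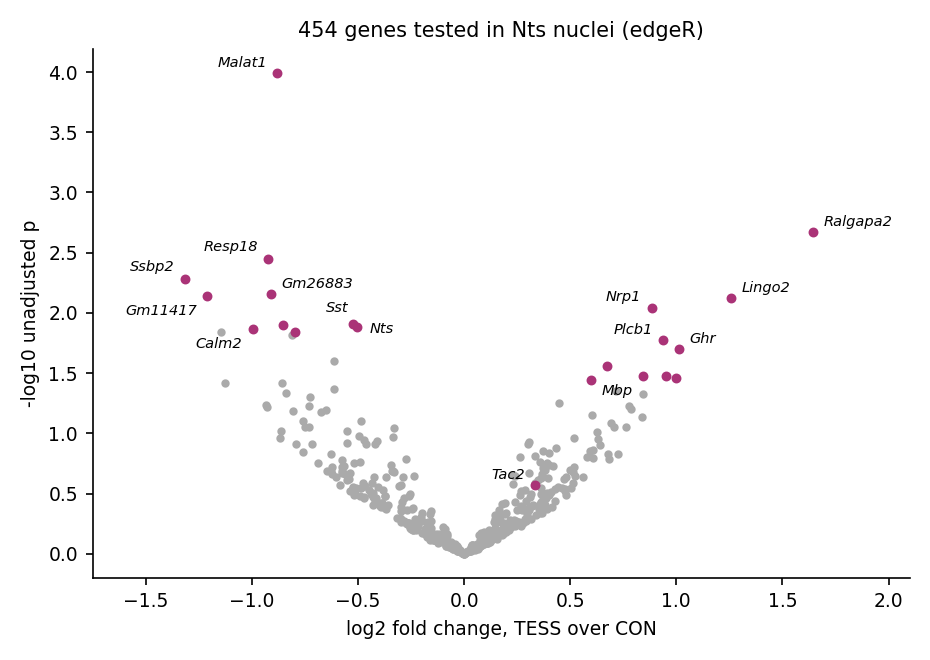
Each point is 1 of the 454 genes tested, with log2 fold change (TESS over CON) on the horizontal axis and −log10 of the unadjusted edgeR p on the vertical axis; purple points are the genes named by rule. Malat1 stands alone at the top, and Nts and Sst lie next to each other at −0.51 and −0.53.

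The mean level of Nts itself was lower in TESS, with overlapping groups. Its UMIs numbered 335, 392 and 200 in CON 1, 2 and 3 and 84, 118 and 55 in TESS 1, 2 and 3, which is 6783, 9172 and 5087 CPM against 4957, 5301 and 5494 CPM. CON 3 lay inside the TESS range, and the TESS samples were close to each other. Means were 7014 ± 2053 and 5251 ± 272 CPM (SD, n = 3). The fitted log2 difference was −0.51 ± 0.20, with −0.24 when CON 2 was left out and −0.81 inside batch 3. The depositors formed the subtype from these counts, and Nts is its marker, so the label conditions on the level compared and the difference is given as a description, with no test. The median nucleus held 8.5, 14 and 5 Nts UMIs in CON and 7, 5 and 3 in TESS.

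Outside the subtype the groups did not overlap in Nts. In other neurons Nts stood at 77.5, 107 and 74.3 CPM in CON 1, 2 and 3 and at 32.4, 29.1 and 36.9 CPM in TESS 1, 2 and 3. In other excitatory neurons the log2 difference was −1.52 ± 0.21, 1 of 83 genes (0.888% of 9350) called there by edgeR. The label has taken nuclei with much Nts out of these neurons and put them in the subtype, so the difference inside and the one outside are given side by side, and no test between them is independent of the label. For genes in general, the interaction of stimulation with class passed in 0 of 5920 genes (edgeR), with 343 at an unadjusted p under 0.05. Malat1 had an interaction of −0.69 ± 0.18 (edgeR adjusted p = 0.214). That is more than the gap between its separate changes, −0.88 in Nts nuclei and −0.58 in other excitatory neurons. The interaction fit scales counts over its own 5920 genes, many of them sparse in Nts nuclei, so its values need not equal such gaps. With only the 454 genes tested in Nts nuclei, an alternative chosen after the data were seen, its interaction was −0.26 ± 0.05 (edgeR adjusted p = 0.014).

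Nts nuclei held most neuronal Nts RNA in every sample. Their share of all neuronal Nts UMIs was 63.0%, 58.8% and 56.2% in CON 1, 2 and 3 and 59.2%, 72.0% and 60.4% in TESS 1, 2 and 3. The label rests in part on these UMIs, so the shares are a description with no test. As CPM of all neuronal UMIs, Nts nuclei contributed 124 ± 28.9 in CON and 58.6 ± 13.7 in TESS, Rora/Adarb2 nuclei 40.4 ± 8.37 and 9.54 ± 4.62, and all other neurons 44.5 ± 10.2 and 22.9 ± 0.693 (SD, n = 3). Of the difference between groups, 55.7% lay in the Nts nuclei, 26.1% in Rora/Adarb2 and 18.2% in the rest. The contribution of Nts nuclei joins their number, their depth relative to other neurons and their Nts level, which this sum does not separate. Within Rora/Adarb2 nuclei (8 to 30 a sample), Nts stood at 3934, 2123 and 2593 CPM in CON 1, 2 and 3 and at 561, 717 and 1596 CPM in TESS 1, 2 and 3.

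Peptide genes as a list went both ways. Of 35, 8 had enough counts to test: 3 were higher and 5 lower, with a median of −0.32 against −0.03 over all genes tested. These counts and the median include Nts, on which the label conditions. Apart from Nts, Calca (−0.80), Scg2 (−0.58), Sst (−0.53) and Nppc (−0.14) were lower, and Chga (0.29), Tac2 (0.33) and Penk (0.52) higher. None of these passed in edgeR. Sst stood at 3341, 4001 and 4960 CPM in CON 1, 2 and 3 and at 3246, 2920 and 2797 CPM in TESS 1, 2 and 3. The groups did not overlap, by a narrow margin between CON 1 and TESS 1. Its change was −0.53 ± 0.20 (edgeR adjusted p = 0.46), with −0.30 inside batch 3. In other excitatory neurons Sst fell by 0.58 ± 0.14 (edgeR adjusted p = 0.0318).

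Calca and Penk varied widely within groups. Calca stood at 607, 1170 and 331 CPM in CON 1, 2 and 3 and at 118, 584 and 599 CPM in TESS 1, 2 and 3, where TESS 1 rested on 2 UMIs. The groups overlapped. Its change was −0.80 ± 0.43 (edgeR adjusted p = 0.768), and −2.98 inside batch 3, which sets TESS 1 alone against CON 1 and CON 2 and so has no replicate in TESS. Its paralog Calcb had 0 UMIs. Penk stood at 1093, 1240 and 432 CPM in CON and at 1475, 719 and 2497 CPM in TESS, with a change of 0.52 ± 0.32 (edgeR adjusted p = 0.848), and 0.11 without TESS 3.

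Tac2 stood at 1114, 1357 and 483 CPM in CON 1, 2 and 3 and at 1003, 1617 and 1299 CPM in TESS 1, 2 and 3. CON 3 was low, and the groups overlapped. Its change was 0.33 ± 0.30 (edgeR adjusted p = 0.871), and −0.42 inside batch 3, whereas in other excitatory neurons Tac2 fell by 0.55 ± 0.14 (edgeR adjusted p = 0.0403). The interaction for Tac2 was 0.59 ± 0.31 in the fit over 5920 genes (edgeR adjusted p = 0.843). It is scaled over those genes and is smaller than the gap between the 2 separate changes.

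Cck was too sparse for the test but uneven between groups. Its UMIs numbered 8, 26 and 25 in CON 1, 2 and 3 and 0, 0 and 2 in TESS 1, 2 and 3, in 7, 5 and 10 nuclei and in 0, 0 and 2. TESS 3, at 200 CPM, lay above CON 1, at 162 CPM, so the groups overlapped. After each nucleus was thinned to 500 UMIs, which left out 5 CON and 9 TESS nuclei, Cck was found in 15% of CON and in 0 of 47 TESS nuclei, which at that depth allows up to 6.38% of nuclei with a UMI (counting error only, and no limit on nuclei that express the gene), against 21.0% and 3.57% before thinning. A single CON 2 nucleus of 3698 UMIs gave 15 of the 61 Cck UMIs and also 37 of the 679 Sst UMIs. With no filter on low counts, Cck was called. In other excitatory neurons Cck fell by 0.68 ± 0.16 (edgeR adjusted p = 0.0318). The interaction, scaled over its own 5920 genes, was −3.14 ± 0.80 (edgeR adjusted p = 0.214).

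**Figure D5:**
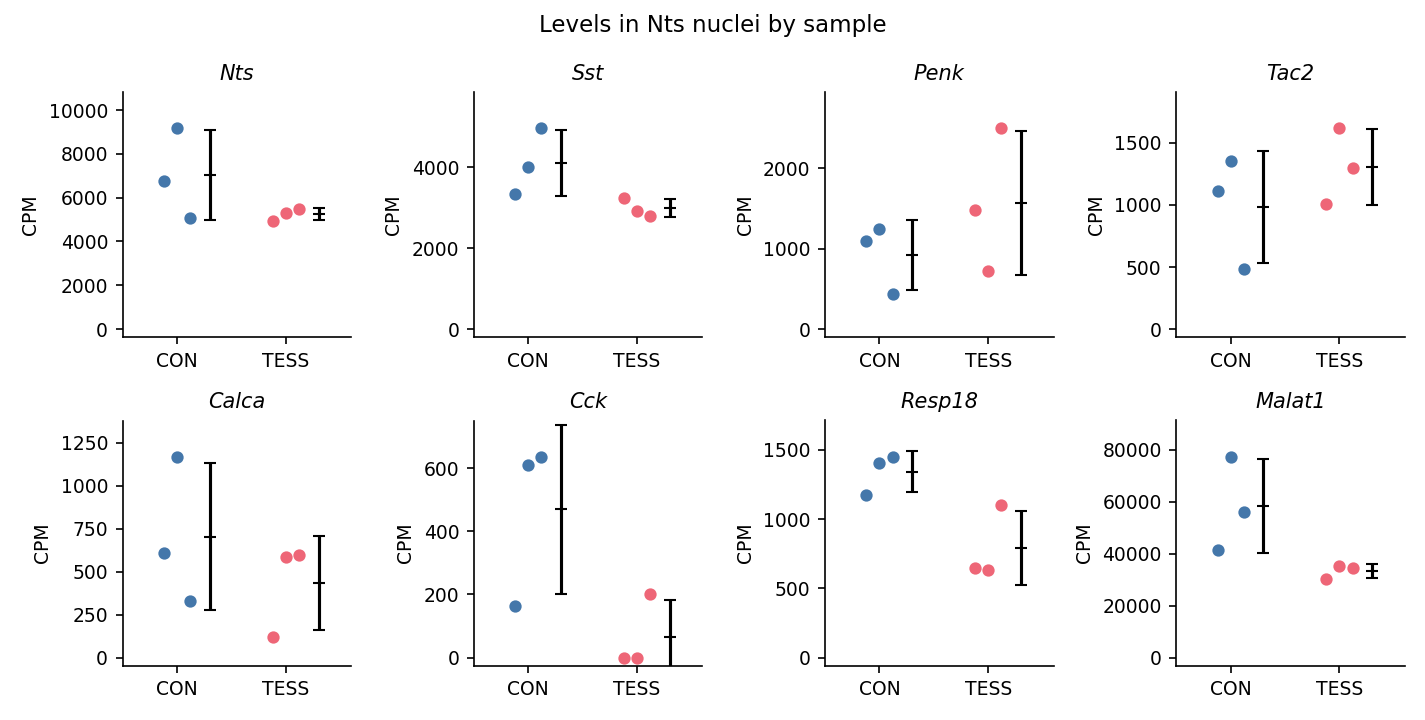
Levels in Nts nuclei in CPM for 6 peptide genes, the granule gene Resp18 and Malat1; each dot is 1 sample (1, 2 and 3 from left to right), CON in blue and TESS in red, and the black bar beside them is the mean with SD, cut off at the axis for Cck in TESS. Sst, Resp18 and Malat1 do not overlap between groups, Nts overlaps through CON 3, and Cck is at 0 in 2 TESS samples.

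Genes of peptide granules were mixed. Resp18, a neuroendocrine gene linked to the regulated secretory pathway, stood at 1174, 1404 and 1450 CPM in CON 1, 2 and 3 and at 649, 629 and 1099 CPM in TESS 1, 2 and 3. All 3 CON samples lay above all 3 TESS samples. The change was −0.92 ± 0.31 (edgeR adjusted p = 0.46), with −1.10 inside batch 3, while in other excitatory neurons Resp18 fell by 0.66 ± 0.13 (edgeR adjusted p = 0.00656). It was found in 71.4% of CON and 37.5% of TESS nuclei, and in 48% and 25.5% after thinning. Resp18 overlaps Gm28902 on the other strand. Of the 22 listed genes of peptide processing and granules, 10 were tested, 3 higher and 7 lower, with a median of −0.17 and none called. Among them Scg5, a chaperone gene of prohormone convertase 2, was at −0.61 ± 0.30 and Pcsk2, the convertase gene itself, at −0.41 ± 0.26.

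The remaining named genes that were lower did not pass either, at an edgeR adjusted p of 0.46 each. They were Ssbp2 (−1.31), Gm11417 (−1.21), Calm2 (−0.995), Gm26883 (−0.91), Psap (−0.85) and Tecr (−0.79). Psap encodes prosaposin, a lysosomal precursor protein, and Calm2 encodes calmodulin. The 2 long RNAs Gm26883 and Gm11417 overlap Tshz2 and Asic2 on the other strand, so their reads are uncertain, and both fell in other excitatory neurons, by 0.80 ± 0.18 (edgeR adjusted p = 0.0179) and 0.79 ± 0.15 (edgeR adjusted p = 0.00656). Ssbp2 and Tecr also overlap other annotated genes.

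No gene was called higher. Ralgapa2, a Ral GTPase regulator gene, had the largest value: 101, 117 and 127 CPM in CON 1, 2 and 3 and 413, 359 and 400 CPM in TESS 1, 2 and 3. These rest on 5, 5 and 5 UMIs in CON and 7, 8 and 4 in TESS. The groups did not overlap, but the filter, which asks for 325 CPM in 3 samples, let the gene in through the TESS samples alone. The same holds for Lingo2 and Rgs7bp below and, through the CON samples, for Ssbp2, so that a difference in these genes was a condition of their being tested. The log2 fold change of Ralgapa2 was 1.65 ± 0.52 (edgeR adjusted p = 0.46), and 0.36 ± 0.14 in other excitatory neurons (edgeR adjusted p = 0.25). Nrp1, the semaphorin co-receptor gene neuropilin-1, stood at 547, 515 and 509 CPM in CON and at 885, 988 and 1299 CPM in TESS, again without overlap, with a change of 0.88 ± 0.33 (edgeR adjusted p = 0.46).

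Of the others, Lingo2 was at 1.26, Ghr at 1.01, Rgs7bp at 1.00, Mbnl1 at 0.95, Plcb1 at 0.94, Mbp at 0.84, Pcdh15 at 0.67 and Erc2 at 0.60, with edgeR adjusted p from 0.46 to 0.697. Lingo2, Plcb1 and Rgs7bp did not overlap between groups. Ghr and Erc2 were among the genes that were higher in Sst than in Tac2 nuclei. Mbp, a myelin gene, was 1 of the 2 oligodendrocyte markers tested. It stood at 1298 CPM in TESS 1 against 364 to 539 CPM in the other samples. Inside batch 3, where TESS 1 alone stands against CON 1 and CON 2, Mbp was at 1.68. Ralgapa2, Lingo2, Nrp1, Plcb1, Pcdh15, Mbp, Mbnl1 and Erc2 overlap other annotated genes.

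Receptor, channel and fate genes gave no call. Of 31 glutamate receptor and scaffold genes, 12 were tested, 7 higher and 5 lower, with a median of 0.12; Gria2 was at −0.33 ± 0.20 and Grm5 at −0.27 ± 0.19. Of 21 GABA and glycine receptor genes, 7 were tested, with a median of −0.11, and Glra3 was at 0.01 ± 0.35. Of 53 voltage-gated channel genes in the table, 21 were tested, 12 higher and 9 lower, with a median of 0.05, and Cacna2d1 was at 0.31 ± 0.20. The 6 dorsal factors tested had a median of 0.09, with Ebf2 at −0.02 ± 0.22. Pbx3, a factor of that list too sparse to test, had 8, 9 and 19 UMIs in CON 1, 2 and 3 and 1, 1 and 0 in TESS 1, 2 and 3, and was singled out after its values were seen.

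Immediate early genes, whose transcription rises quickly when a neuron fires, gave few UMIs in these nuclei. Of 36 measured, 20 had 0 UMIs and none could be tested. Together they gave 8, 4 and 9 UMIs in CON 1, 2 and 3 and 7, 6 and 4 in TESS 1, 2 and 3, which is 162, 93.6 and 229 CPM against 413, 270 and 400 CPM. The groups did not overlap, TESS lying above CON; groups did not overlap, in either direction, in 13 of 24 subtypes (54.2%), and the difference ranked 10th of the 24. Such UMIs were found in 17 of 105 CON nuclei (16.2%) and 13 of 56 TESS nuclei (23.2%). These totals rest on 38 UMIs.

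Single members gave a few UMIs each. Per1, a clock gene that also responds to activity, had 4 UMIs in CON and 5 in TESS. Fos and Junb had 0 in CON and 2 each in TESS, and Egr1 had 1 in each. Arc had 1 in CON and Npas4 had 1 in TESS, and Btg2 had 2 in CON and 0 in TESS. Fosb, Nr4a1, Nr4a3 and Sik1 were at 0. Among slower response genes, Pcsk1 had 7 UMIs in CON and 3 in TESS, and Scg2, at −0.58 ± 0.41, did not pass (edgeR). Gm15261 had 13, 15 and 10 UMIs in CON and 2, 2 and 0 in TESS, too few to test, and fell by 1.73 ± 0.22 in other excitatory neurons (edgeR adjusted p = 1.3e-05). Gal had 2 UMIs and Cep19 had 5.

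Against the most alike subtypes, no change was shown to differ. The interaction of stimulation with subtype passed in 0 of 705 genes against Trh, 0 of 766 against Tac2/Nmu and 0 of 905 against Npyr-1, with 31, 19 and 34 genes at an unadjusted p under 0.05 in edgeR. Within these subtypes alone, 0 of 506, 584 and 987 genes were called. Malat1 was at −0.55 in Trh, −0.60 in Tac2/Nmu and −0.76 in Npyr-1, and Resp18 at −0.50, −0.95 and −0.71, beside −0.88 and −0.92 in Nts nuclei. All of these comparisons come from the same 6 libraries.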

How the data were processed

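Single nuclei of 6 samples, 3 per group, were counted by the authors. The deposited table holds counts, whole-number UMIs for 19954 genes in 18514 nuclei, and the deposited metadata give the library, batch, major type, subtype and a fraction of mitochondrial UMIs per nucleus, which was used only to describe the nuclei. Cell Ranger 2.2.0, Seurat 3 and the builds mm10 and GRCm38 are named per the submitters' processing notes; nucleus filters, strand of counting, doublet handling and what a batch is were not stated in the sources used here.

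Counts were summed over the Nts nuclei of each sample (10011 to 49387 UMIs), which bounds precision, and TESS was compared with CON in edgeR 4.0.16 (R 4.3.3; TMM, quasi-likelihood F test, filterByExpr with a minimum count of 10), adjusted over all genes tested. SE is the fold change over the square root of F. CPM are over all UMIs of the summed nuclei. Interactions with other excitatory neurons (2925 nuclei) or another subtype had the sample as a block. The transmitter rule put Fxyd6 (366 nuclei) among inhibitory subtypes. The share of Nts nuclei and their median depth were compared with exact permutation tests over samples. Named genes were the called ones, those of smallest p up to 10 per direction, fixed activity and peptide genes, the highest list members, and the 15 of largest level ratio with at least 100 UMIs; some of the genes so named are not reported here. Members and lists were chosen with earlier results of these data known. Coordinates and overlaps came from GENCODE vM21. The fitting code was tested on simulated data. Alternatives were RLE scaling, DESeq2 1.42.0, no filter, a batch term, batch 3 only, thinning, a depth minimum of 500 UMIs, a replicate block and leaving out each replicate.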

Additional observations from a re-analysis of the deposited data

How the results depend on the processing

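The single call in Nts nuclei was fragile. The count was 1 by edgeR, with RLE scaling and by DESeq2, in each case Malat1. It was 2 with no filter on low counts (Cck and Malat1), a setting that moved the median change of all genes to −0.58, 1 with a batch term (Calca), and 2 inside batch 3 (Calca and Mbp). Batch 3 holds 1 TESS sample, which the fit assumes to vary like the CON pair, and its Calca level rests on 2 UMIs. CON 3, TESS 2 and TESS 3 are each alone in their batch, so the batch term rests on the same contrast inside batch 3. The calls of these 2 settings thus have no replicate in TESS. It was 0 after thinning to 500 UMIs, 0 with only nuclei of at least 500 UMIs and 0 with Malat1 left out, and leaving out 1 replicate gave 0 to 1, with the 1 only without CON 1. The deviations of same-numbered samples had correlations of −0.03, −0.05 and −0.11. With so few UMIs these values cannot show whether the replicate numbers pair samples. With a replicate block the count was 0 and the share difference −0.806 points. The interaction count against other excitatory neurons was 1 with no filter (Malat1), 2 with only the 454 genes tested in Nts nuclei (Malat1 and Nts, the marker on which the label conditions), and 0 to 2 without 1 replicate (Malat1 without TESS 2, Cck and Malat1 without TESS 3). Against Trh it was 1 with no filter (Cck) and 0 to 1 without 1 replicate (Kcnip4 without TESS 1, Cck without TESS 3), against Tac2/Nmu 0 to 2 (Kcnip4 and Malat1 without TESS 2), and against Npyr-1 it was 0 in all settings run. The alternatives against single subtypes, the 454 genes, the fit without Malat1 and 2 other choices of comparison class (0 each) were added after the data were seen. The share difference ran from −1.08 to −0.544 points without 1 replicate. Of 344 values for 23 single genes, 3 turned direction, all of Tac2. They were −0.067 with no filter and −0.42 both with a batch term and inside batch 3, which is the same contrast. Another 10 lost the call (all Malat1) and 3 gained one. Few nuclei and UMIs limit the test to 454 of 11964 genes with any UMI.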
